A study of Arabidopsis thaliana with 9 samples.

Results

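A set of 55 Arabidopsis thaliana genes lost part of the share of their leading transcript isoform in seedlings of the smd1b mutant and not, by the same measure, in seedlings of the prp39a mutant. Share is the TPM of an isoform (a transcript's abundance per length, scaled to a total that is the same in every library) as a percentage of the summed TPM of its gene. The genes were chosen on these values. Each had a mean of 5 TPM or more in every genotype. Its isoform with the highest mean share in wild type stood 20 or more points lower in smd1b, with all 3 smd1b libraries below all 3 wild-type libraries, and under 10 points lower in prp39a. Of 34212 genes in the table, 15434 met the TPM minimum, 10843 of these had 2 or more isoforms, and 55 met the whole rule. The same rule with the mutants exchanged picked 185 genes, and 26 genes met the 20-point condition in both mutants.

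The study sequenced polyadenylated RNA of whole seedlings aged 14 days, grown on 1/2MS medium, in 9 libraries. The 3 groups were smd1b (allele smd1b-3), prp39a (allele prp39a-3, line SAIL_1249A03) and wild type (Col-0), each with 3 libraries that the labels call independent biological replicates. Each mutant was represented by 1 allele. TPM columns carry no sequencing depth, so read numbers are unknown. SMD1B itself was listed at 0, 0.138 and 0 TPM in smd1b libraries, against 49.97, 59.2 and 53.4 TPM in prp39a and 53.1, 53.6 and 50.3 TPM in wild type. PRP39A stood at 53.6, 51.3 and 53.0 TPM in smd1b, 5.44, 5.48 and 5.58 TPM in prp39a, and 48.5, 55.1 and 49.98 TPM in wild type.

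SmD1 is a subunit of the Sm ring, the protein ring that holds together the small nuclear ribonucleoprotein particles of the spliceosome, and Arabidopsis encodes it in the paralogs SMD1A and SMD1B. PRP39 is known from yeast as a protein of the U1 particle, which recognises the donor (5′) splice site of an intron. Pre-mRNAs that are spliced at alternative donor or acceptor sites, or that keep an intron, give isoforms that can differ in the protein they encode or in their stability. A shift in isoform share can therefore occur with no shift in a gene's total.

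The files name isoforms with suffixes such as P, ID, JC, JS, c and s that they do not define, so no structure is assigned to those names. For 11 of the 55 genes the lost isoform, meaning the leading wild-type isoform with the lower share in smd1b, had a RefSeq transcript of the same name in the TAIR10.1 annotation. The gained isoform, the one whose mean share was higher in smd1b by the most points, had one in 6 genes. Only MYB4R1 (AT3G18100) and AT3G25570 had both. The files do not state that a shared name means an identical transcript. The splice sites at which the lost and gained RefSeq transcripts of these genes differ are printed 5′ to 3′ on the gene's strand from the TAIR10.1 assembly, with the first and last pair of intron bases in capitals.

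AT3G25570, an S-adenosylmethionine decarboxylase family gene (polyamine synthesis), lies on the minus strand of chromosome 3 at 9287178 to 9289338. Both transcripts use 1 donor site and differ at the acceptor. The lost AT3G25570.1 removes an intron of 166 bases (9288916 to 9289081) and the gained AT3G25570.2 an intron of 199 bases (9288883 to 9289081), so the acceptors lie 33 bases apart in the genome.
AT3G25570 shared donor: cttGTaagtaatc
AT3G25570.1 acceptor, lost: tttgccttactctgaaacAGagt
AT3G25570.2 acceptor, gained: tattgctctgttcttcacAGgtg
The lost AT3G25570.1 held 45.7, 54.3 and 28.1% of the gene's TPM in smd1b, 49.99, 72.9 and 65.4% in prp39a, and 69.3, 78.1 and 70.6% in wild type. The gained AT3G25570.2 held 27.1, 33.5 and 55.4% in smd1b, 43.9, 27.1 and 34.6% in prp39a, and 27.9, 16.8 and 24.3% in wild type. For the gained form smd1b and wild type overlapped, and for the lost form smd1b also overlapped with prp39a. The gained form's mean share was 38.7% in smd1b, 35.2% in prp39a and 23.0% in wild type, so its mean was higher in both mutants. The gene has 3 isoforms in the table, and AT3G25570.2 took 52.3% of the difference in smd1b.

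MYB4R1, a Myb-domain protein gene, lies on the plus strand of chromosome 3 at 6200524 to 6204752. The lost AT3G18100.2 removes an intron of 70 bases (6201687 to 6201756) that lies within an exon of the gained AT3G18100.1.
AT3G18100.2 donor of the intron kept in AT3G18100.1: cagGTacataact
AT3G18100.2 acceptor of the same intron: tacttgtgaaagctttccAGatc
The lost AT3G18100.2 held 35.0, 51.4 and 58.7% in smd1b, 80.3, 95.1 and 76.1% in prp39a, and 78.9, 73.7 and 78.4% in wild type. The intron-keeping AT3G18100.1 took the whole difference, with 65.0, 48.6 and 41.3% in smd1b, 19.7, 4.93 and 23.9% in prp39a, and 21.1, 26.3 and 21.6% in wild type. The smd1b libraries stood apart from both other genotypes, and the gene total was 7.10 ± 0.469 TPM in smd1b, 6.19 ± 0.555 TPM in prp39a and 6.39 ± 0.522 TPM in wild type (SD, n = 3 each).

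Annotated features of the 55 genes were set beside those of the 10843 genes with 2 or more isoforms, without a test. The medians were the same for RefSeq transcripts (2 against 2) and exons (7 against 7). A retained intron was annotated in 31 of the 55 (56.4%, against 39.7%), an alternative acceptor in 19 (34.5%, against 26.1%) and an alternative donor in 15 (27.3%, against 22.9%). The 185 genes lower in prp39a alone had 63.8%, 36.2% and 35.7% for the same features. The 55 had a median of 5 isoforms in the table, against 3 for the 10843. Median intron length was 104 bases against 103, and the donor began with GTAAG in 18.2% of 434 annotated introns against 16.6% of 81642.

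Over the 55 genes the lost isoform's mean share had a median of 44.8% in smd1b, 68.8% in prp39a and 70.0% in wild type. The difference that chose the genes was 24.5 points at the median and ran between 20.1 and 67.8 points. The gap between the lowest wild-type and the highest smd1b library was over 10 points in 39 genes and under 5 points in 6. In 25 genes another isoform led by mean share in smd1b, and in 30 the same isoform still led. The lead was not always firm: the lost isoform led in all 3 wild-type libraries in 50 genes, and in 9 of these it led in no smd1b library. In AT2G41640, AFB4, UPS5, OXP1 and AT2G40640 it led in some wild-type libraries only. The gained isoform took 90% or more of the difference in 27 genes and under 50% in 7. In the 9 genes with only 2 isoforms in the table, the gained isoform takes the whole difference by definition. Its mean share had a median of 37.9% in smd1b, 13.2% in prp39a and 13.8% in wild type.

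**Figure D1:**
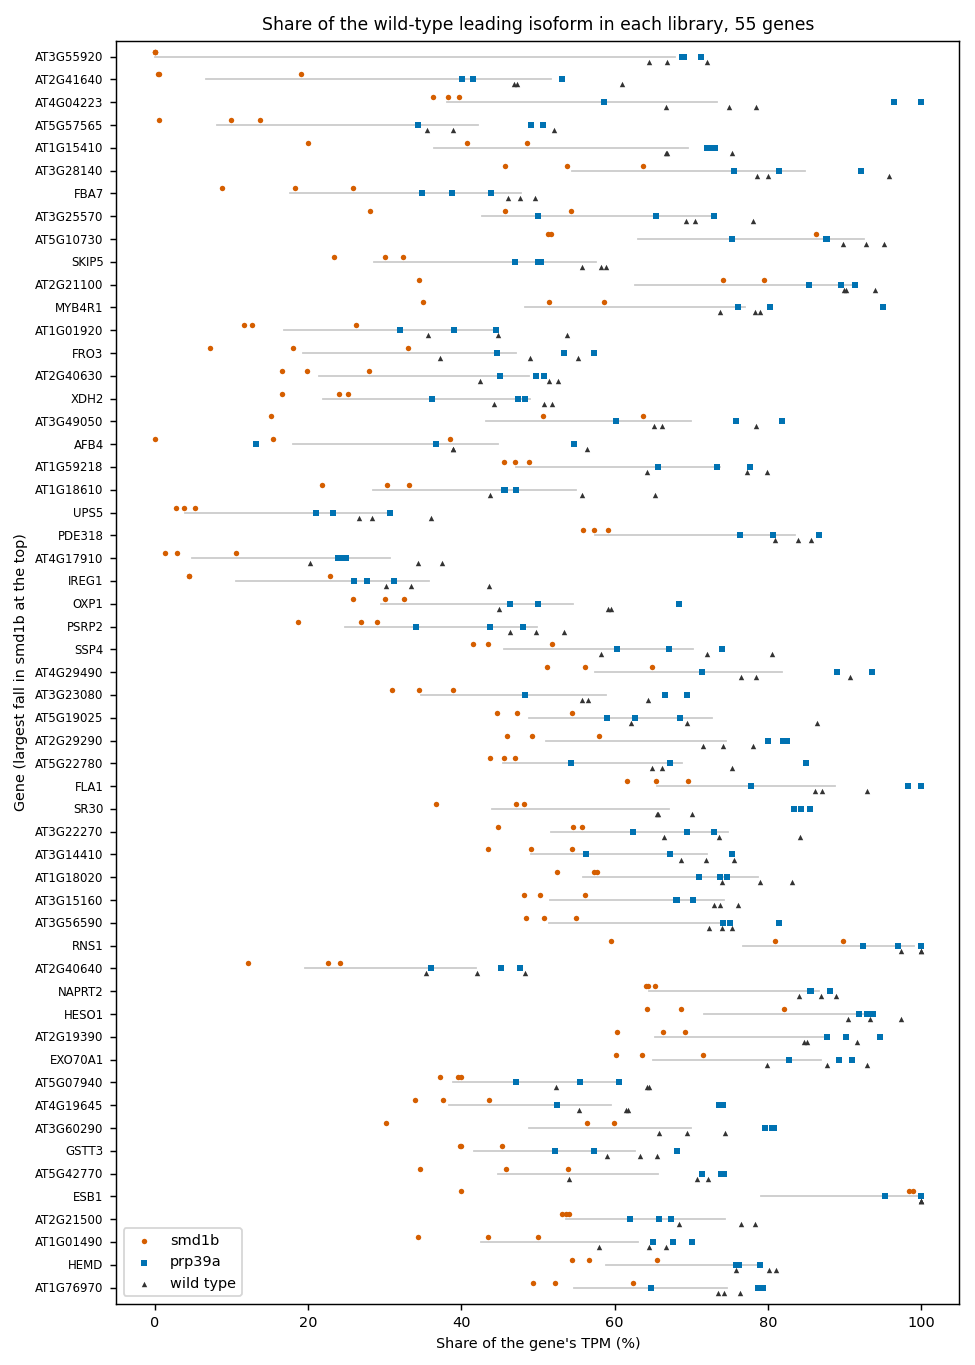
Share of the wild-type leading isoform in each library (x axis, % of the gene's TPM) for the 55 genes (rows, largest smd1b difference at the top), with circles for smd1b, squares for prp39a and triangles for wild type, and a grey line joining the smd1b and wild-type means. By the rule the circles lie left of the triangles in every row, while the squares overlap with the triangles in 47 of 55 rows.

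In prp39a the shares of the 55 lost isoforms overlapped with wild type in 47 genes, lay below all wild-type values in 5 (FBA7, AT5G10730, SKIP5, AT3G15160 and AT2G21500) and above them in 3. Among all 10843 genes, 16.4% had prp39a shares below and 9.60% above wild type. The mean share was higher in prp39a than in wild type in 22 of the 55 genes. A limit of under 10 points in prp39a was part of the rule, so nothing is read from these counts.

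The smd1b condition alone, 20 points or more with no overlap, was met by 94 genes (0.867% of 10843), against 2.62% for the same condition in prp39a. Of the 94, 13 stood between 10 and 20 points lower in prp39a and so were not counted in either set. Just inside the limit were AT1G01490 (20.4 points), HEMD (20.1 points) and AT1G76970 (20.1 points). Just outside were AT2G25010 (19.9 points), MPK1 (19.9 points) and LSMT-L (19.8 points).

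**Figure D2:**
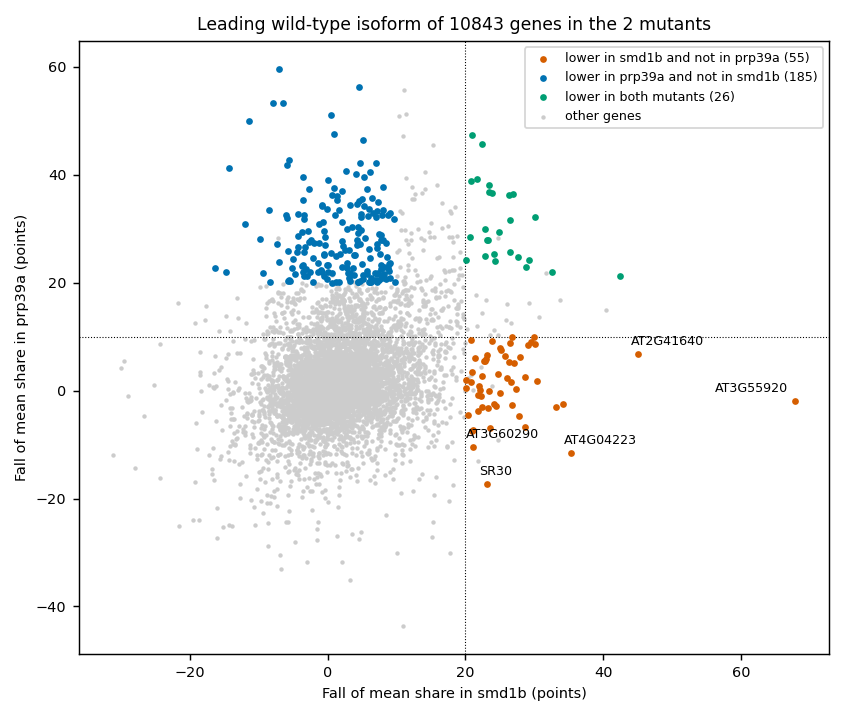
Difference in mean share of the leading wild-type isoform, wild type minus mutant in points, for smd1b (x axis) and prp39a (y axis), with 1 point per gene for 10843 genes. Dotted lines mark 20 points in smd1b and 10 points in prp39a, and the 55 genes lie right of the first line and below the second, beside a few grey points whose libraries overlapped, with AT3G55920 farthest right at 67.8 points and SR30 lowest.

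The isoform ratio, log2 of an isoform's TPM plus 0.5 over the TPM of its gene's other isoforms plus 0.5, was fitted with limma for 22158 isoforms over all 9 libraries (Benjamini-Hochberg adjusted p under 0.05). In smd1b against wild type, 26 of the 55 lost isoforms passed, all lower, where 1.16% of all tested isoforms and 2.33% of leading isoforms passed in that direction. With 1 library left out, between 8 and 30 of the 55 passed: leaving out any wild-type or smd1b library moved the count to 15 or fewer. Against prp39a directly, 40 were lower in smd1b, where 6.91% of all isoforms were. In prp39a against wild type 1 passed, SR30, which was higher, beside 10.6% of all isoforms in either direction and 5.46% in that direction. The genes were chosen on these 9 libraries, so the counts describe the set and support nothing. The same holds for the smd1b ratios and adjusted p-values given below for single lost isoforms.

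The genes were sorted by known role after their values were seen, and no group was tested. Among 9 genes of RNA and gene regulation the difference ran between 21.8 and 30.4 points, with a median of 23.1 points. SR30 (AT1G09140) encodes a serine/arginine-rich splicing factor. Its lost isoform AT1G09140_P2 held 36.8, 47.1 and 48.2% in smd1b, 84.3, 83.4 and 85.5% in prp39a, and 65.7, 65.5 and 70.1% in wild type. The gained AT1G09140_P1 mirrored it, with 46.6, 37.5 and 36.1% in smd1b, 5.39, 7.23 and 5.56% in prp39a, and 25.5, 25.5 and 22.9% in wild type. The genotypes did not overlap for either isoform, and the mutants lay on opposite sides of wild type. The rule fixed the smd1b side for the lost isoform, and the gained isoform was picked for its gain in smd1b. The isoform ratio of AT1G09140_P2 was −1.36 ± 0.22 log2 units (SE) in smd1b against wild type (limma adjusted p = 0.0206) and 1.38 ± 0.22 in prp39a against wild type (limma adjusted p = 0.00518). The gene total was 75.7 ± 3.0 TPM in smd1b, 78.7 ± 4.35 TPM in prp39a and 68.5 ± 4.02 TPM in wild type (SD, n = 3 each) and passed in neither mutant.

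HESO1, a nucleotidyltransferase that adds uridines to unmethylated small RNAs, had 68.7, 64.2 and 82.1% of its TPM in AT2G39740.1 in smd1b, against 91.9, 93.7 and 92.9% in prp39a and 93.3, 90.5 and 97.3% in wild type. Its gained isoform AT2G39740_s1 held 22.8, 22.8 and 8.43% in smd1b, 2.31, 2.18 and 2.76% in prp39a, and 1.89, 2.56 and 0% in wild type. An isoform that was minor in prp39a and wild type thus held a larger share in each smd1b library. In 7 genes the gained isoform averaged under 5% in both prp39a and wild type: AT3G55920, SKIP5, UPS5, RNS1, NAPRT2, HESO1 and ESB1.

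PSRP2 (AT3G52150), an RNA-binding protein of plastid ribosomes, had the highest total of the set, at 198 ± 5.6 TPM in smd1b, 181 ± 9.21 TPM in prp39a and 209 ± 25.5 TPM in wild type (SD, n = 3 each). Its lost isoform AT3G52150_JC5 held 29.0, 18.7 and 26.9% in smd1b, 48.0, 43.8 and 34.1% in prp39a, and 53.3, 46.4 and 49.8% in wild type. The gained AT3G52150.2, which removes an intron of 106 bases lying within an exon of the other RefSeq transcript, held 18.7, 20.7 and 19.5% in smd1b, 0.105, 0.00227 and 5.02% in prp39a, and 5.52, 14.5 and 3.40% in wild type. AT3G52150.2 took 47.4% of the difference, and the structure of the lost isoform is not known from the files.

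MYB4R1, described above, also belonged to this group. AT2G19390 (annotated as a serine/arginine repetitive matrix protein), AT3G22270 (PAT1 family, related to mRNA decapping activators), RNS1 (a secreted ribonuclease), AT3G28140 (RNA ligase/cyclic nucleotide phosphodiesterase family) and AT1G01920 (SET domain) were the other genes. The intron that the gained AT3G28140.2 removes, 237 bases long, also lies within an exon of the other RefSeq transcript. AT3G28140.2 held 46.2, 36.2 and 54.4% in smd1b, 24.4, 7.78 and 18.6% in prp39a, and 21.4, 4.19 and 19.97% in wild type. The smd1b values were above all 6 others.

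The 15 genes of metabolic enzymes had a median difference of 25.8 points (20.1 to 45.0 points). Of their lost isoforms, 9 passed the ratio test in smd1b, where 2.33% of all leading isoforms were lower. The rule chose these isoforms, so counts by role are not compared. FBA7 encodes a fructose-bisphosphate aldolase of glycolysis. Its AT4G26520.1 held 8.75, 25.9 and 18.4% in smd1b, 43.9, 34.8 and 38.8% in prp39a, and 49.7, 46.1 and 47.7% in wild type. The smd1b libraries were the lowest, and the prp39a libraries also lay below wild type, by a smaller margin. NAPRT2, a nicotinate phosphoribosyltransferase of NAD salvage, was among the tightest: AT2G23420_P1 held 64.4, 64.1 and 65.2% in smd1b, 88.1, 85.5 and 85.7% in prp39a, and 88.9, 84.0 and 87.0% in wild type. Its ratio was −1.66 ± 0.19 log2 units (SE) in smd1b against wild type (limma adjusted p = 0.00518), from the libraries that chose the gene.

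XDH2, a xanthine dehydrogenase of purine breakdown, had 25.2, 24.1 and 16.6% in its lost isoform in smd1b, 47.3, 36.2 and 48.3% in prp39a, and 44.2, 50.8 and 51.9% in wild type. OXP1, a 5-oxoprolinase of glutathione turnover, has 2 isoforms in the table, and the lost one held 30.1, 32.6 and 25.9% in smd1b, 49.96, 68.5 and 46.3% in prp39a, and 59.5, 45.0 and 59.2% in wild type. In both genes smd1b was lower than each of the other 6 libraries. AT2G29290, an NAD(P)-binding Rossmann-fold protein, had 46.0, 49.2 and 58.0% in smd1b, 82.0, 79.99 and 82.5% in prp39a, and 71.5, 74.2 and 78.0% in wild type, so that, as in SR30, the mutants lay on opposite sides of wild type.

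AT2G41640, a glycosyltransferase family 61 gene, had the second largest difference, 45.0 points. Its lost isoform AT2G41640_P2 held 0.582, 19.1 and 0.495% in smd1b, 41.5, 40.1 and 53.1% in prp39a, and 47.3, 61.0 and 46.9% in wild type. It has 2 isoforms in the table, and in wild type AT2G41640_P2 led in library 2 alone, so the gene was split about evenly there. AT1G15410 (aspartate-glutamate racemase family) had 48.5, 20.05 and 40.8% in its lost isoform in smd1b, 72, 73.1 and 72.7% in prp39a, and 66.8, 75.4 and 66.7% in wild type.

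AT3G25570, described above, was also counted among the enzymes. The other enzymes were AT5G10730, AT3G49050 (hydrolase), AT3G60290 (oxygenase), GSTT3 (glutathione S-transferase), AT4G17910 (acyltransferase), AT1G18020 (FMN-linked oxidoreductase) and HEMD, a uroporphyrinogen-III synthase of the pathway to chlorophyll and heme. In AT5G10730 smd1b library 2 was close to wild type: the lost isoform held 51.8, 86.3 and 51.3% in smd1b, 87.6, 75.4 and 87.7% in prp39a, and 95.2, 89.8 and 92.8% in wild type. AT3G49050 rested on smd1b library 3, with 50.7, 63.8 and 15.1% in smd1b, 75.8, 60.2 and 81.9% in prp39a, and 66.2, 78.5 and 65.2% in wild type. Without that library its difference was 12.7 points, against 26.8 points with it.

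Among 9 genes of transport and membrane traffic the difference ran between 20.1 and 27.8 points. In smd1b, 2 lost isoforms passed the ratio test, where 2.33% of all leading isoforms were lower. UPS5, a ureide permease that moves nitrogen-rich ureides across membranes, has 21 isoforms in the table. Its lost AT1G26440_P3 held 3.88, 2.79 and 5.23% in smd1b, 30.7, 23.2 and 21.0% in prp39a, and 36.0, 28.4 and 26.6% in wild type. The gained AT1G26440_P7 held 14.3, 18 and 21.4% in smd1b, 0.299, 0.000255 and 1.16% in prp39a, and 5.95, 0.0900 and 0.000165% in wild type. The ratio of AT1G26440_P3 was −3.02 ± 0.28 log2 units (SE) in smd1b against wild type (limma adjusted p = 0.00145), from the libraries that chose the gene.

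The group held a pair of iron genes, the ferric reductase FRO3 and the iron exporter IREG1. FRO3 had 7.16, 33.1 and 18% in its lost isoform in smd1b, 53.4, 44.7 and 57.4% in prp39a, and 37.2, 49.0 and 55.3% in wild type. IREG1 had 4.54, 22.9 and 4.50% in smd1b, 31.2, 26 and 27.7% in prp39a, and 30.1, 43.7 and 33.5% in wild type. In both, smd1b library 2 was nearest to wild type, and neither passed the ratio test (limma adjusted p = 0.0946 for FRO3 and 0.0637 for IREG1).

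The traffic genes were EXO70A1 (exocyst subunit), AT5G22780 (alpha subunit of the AP-2 clathrin adaptor), AT3G15160 (AP-5 subunit zeta-1) and AT1G76970 (Target of Myb protein 1). AT5G22780 had 45.6, 47.1 and 43.7% in its lost isoform in smd1b, 67.2, 85.0 and 54.4% in prp39a, and 75.4, 66.2 and 64.9% in wild type. AT3G15160 had 56.1, 50.3 and 48.2% in smd1b, 68.0, 70.3 and 68.1% in prp39a, and 73.0, 73.8 and 76.1% in wild type. The smd1b libraries of both genes were below all others, and in AT3G15160 prp39a also lay below wild type. AT3G14410 (nucleotide/sugar transporter family) and AT1G01490 (heavy metal transport/detoxification superfamily) completed the group.

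**Figure D3:**
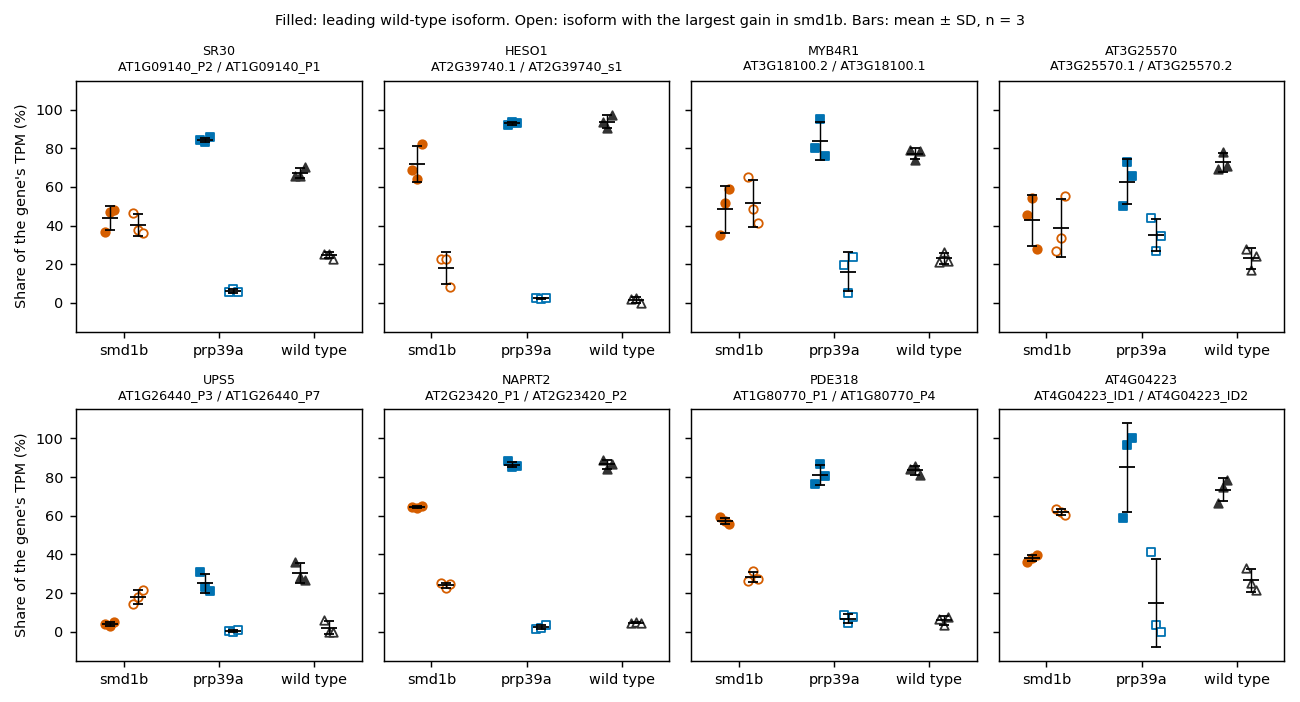
Shares (y axis, % of the gene's TPM) of the leading wild-type isoform (filled) and of the isoform with the largest gain in smd1b (open) in smd1b, prp39a and wild type for 8 of the genes, with 1 point per library and bars for mean ± SD (n = 3). The mean of the open symbols is highest in smd1b in all 8 panels, and SR30 is the only panel in which every prp39a point lies beyond wild type on both isoforms.

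Of 8 genes of protein folding, turnover and phosphorylation, which ran between 20.8 and 67.8 points, AT3G55920 had the largest difference of the set, 67.8 points. It encodes a cyclophilin-like peptidyl-prolyl isomerase, a class of protein-folding enzymes, and lies on the minus strand of chromosome 3 at 20743443 to 20745153, with AT3G55910 overlapping it on the opposite strand. Its lost isoform AT3G55920_P1 was listed at 0 in each of the 3 smd1b libraries, and it held 69.1, 68.8 and 71.3% in prp39a and 64.5, 72.1 and 66.8% in wild type. It was the only lost isoform of the 55 listed at 0 in all smd1b libraries. AT3G55920_ID17 held 100% in each smd1b library and at most 0.379% in any other. The gene total was 6.62, 9.88 and 10.6 TPM in smd1b, 24.3, 23.9 and 28.4 TPM in prp39a, and 30.8, 30.8 and 27.4 TPM in wild type, a log2 fold change of −1.69 ± 0.15 (SE) in smd1b against wild type on TPM plus 0.5 (limma adjusted p = 0.000694). In bulk seedlings, fewer cells of a type and less RNA per cell cannot be told apart.

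SKIP5, an F-box protein that binds the SKP1 subunit of ubiquitin ligases, had 32.4, 23.4 and 30.1% in its lost isoform in smd1b, 50.4, 47.1 and 49.97% in prp39a, and 55.8, 58.3 and 58.9% in wild type. Its difference was spread over several isoforms, since the most gained one, AT3G54480_JS2, held 12.7, 9.71 and 12.3% in smd1b, 2.97, 3.47 and 2.82% in prp39a, and 2.69, 0.00474 and 3.64% in wild type. The auxin receptor F-box gene AFB4 varied widely among libraries in both mutants, with 15.5, 38.6 and 0.0714% in smd1b, 13.2, 54.7 and 36.7% in prp39a, and 38.9, 56.4 and 38.9% in wild type. Its highest smd1b library was 0.327 points below the lowest wild-type library, and without smd1b library 3 the difference was 17.7 points, against 26.7 points with it. AT5G57565 (protein kinase) had 13.8, 9.90 and 0.623% in smd1b, 49.1, 50.7 and 34.3% in prp39a, and 52.1, 38.9 and 35.6% in wild type. The RING/U-box genes AT2G40640 and AT2G21500, the metallopeptidase AT4G29490 and the phosphatase SSP4 were the others.

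Of 5 genes of cell wall and defence, with differences of 20.9 to 28.7 points, all kept the same leading isoform by mean share in smd1b. AT1G59218, an NLR immune receptor gene of the CC-NBS-LRR class, had 48.9, 45.6 and 47.0% in smd1b, 77.6, 65.7 and 73.3% in prp39a, and 77.3, 79.9 and 64.2% in wild type. FLA1, a fasciclin-like arabinogalactan protein of the cell surface, had 61.6, 65.4 and 69.6% in smd1b, 98.3, 100 and 77.7% in prp39a, and 86.2, 92.9 and 87.1% in wild type. The smd1b values of both were below the other 6. The intron that the gained AT5G55730.2 of FLA1 removes is 50 bases long.

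Both dirigent-like genes of this group rested on 1 smd1b library. ESB1, needed for the Casparian strip of the root endodermis, had 99.0, 98.4 and 40.0% in smd1b, 95.3, 100 and 100% in prp39a, and 100% in each wild-type library. Without smd1b library 3 its difference was 1.29 points, against 20.9 points with it. AT2G21100 had 74.1, 34.5 and 79.6% in smd1b, 85.4, 89.6 and 91.4% in prp39a, and 90.2, 89.99 and 94.0% in wild type, and its difference was 14.5 points without smd1b library 2, against 28.7 points with it. AT3G56590, a hydroxyproline-rich glycoprotein gene, was the other one. Over the 55 genes, the difference shrank by more than 1.5 times without 1 library in 6, the others being RNS1 (13.7 points, against 22.3) and AT3G60290 (11.8 points, against 21.1) beside AT3G49050 and AFB4.

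The remaining 9 genes had other or unknown roles and differences of 20.9 to 35.3 points. PDE318, a P-loop nucleoside triphosphatase gene, had 59.1, 57.4 and 55.8% in its lost isoform in smd1b, 76.4, 86.7 and 80.7% in prp39a, and 83.9, 85.6 and 81.0% in wild type. AT1G18610 (kelch repeat) had 21.8, 33.2 and 30.3% in smd1b, 45.7, 47.1 and 45.6% in prp39a, and 43.8, 55.8 and 65.3% in wild type. The groups of smd1b and wild type were well apart in PDE318 and closer in AT1G18610. AT3G23080, AT5G19025, AT5G07940, AT4G19645 and AT5G42770 were further members.

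AT2G40630 (unknown function, plus strand) and AT2G40640 (minus strand) overlap on chromosome 2, between 16960964 and 16961591, and both are members. AT2G40630 had 16.6, 27.9 and 19.8% in its lost isoform in smd1b, 45.1, 50.8 and 49.8% in prp39a, and 51.5, 42.4 and 52.6% in wild type. AT2G40640 had 12.1, 24.2 and 22.6% in smd1b, 47.7, 45.2 and 36.1% in prp39a, and 48.3, 42.1 and 35.4% in wild type. In 18 of the 55 genes another gene overlapped on the opposite strand. Such overlaps were not counted over all genes, so the 18 are not read as a trait of the set. The kit kept strand, but whether the quantification used it is not given in the sources used here, so reads of such partners cannot be told apart here.

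AT4G04223, a noncoding RNA gene on chromosome 4, had the largest change in total of the 55 genes. Its total was 118, 121 and 117 TPM in smd1b, 7.13, 6.23 and 4.96 TPM in prp39a, and 12.2, 14.5 and 12.4 TPM in wild type. The log2 fold change on TPM plus 0.5 was 3.14 ± 0.12 (SE) in smd1b against wild type (limma adjusted p = 1.64e-06) and −1.04 ± 0.12 in prp39a against wild type (limma adjusted p = 0.00381). The lost isoform AT4G04223_ID1 held 36.3, 38.3 and 39.7% in smd1b, 58.7, 96.4 and 100% in prp39a, and 66.8, 74.9 and 78.5% in wild type, and its ratio did not pass in smd1b against wild type (−2.05 ± 0.67 log2 units SE, limma adjusted p = 0.149). It was the only lost isoform whose own level was higher in smd1b, at 45.2 ± 1.90 TPM, against 9.57 ± 1.36 TPM in wild type (SD, n = 3 each). A copy, AT3G56210, matches it at 99.1% identity over 63.8% of its longest transcript, and totalled 26.1 ± 0.123 TPM in smd1b, 19.5 ± 2.30 TPM in prp39a and 19 ± 1.1 TPM in wild type (SD, n = 3 each). Reads may have been divided between them, so both levels are uncertain.

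Of the gene totals of the 55, 5 passed limma in smd1b against wild type, where 6.63% of 20585 genes did (3.57% higher and 3.06% lower). This count is near the share over all genes. In prp39a against wild type 2 passed, where 4.13% of genes did. A total of 50 of the 55 lay within 1.5-fold of wild type in smd1b, with a median log2 fold change of 0.029 against 0.017 over all genes tested. Genes within 1.5-fold were not counted over all genes, so nothing is read from the 50. AT4G17910 rose to 16.4, 16.2 and 17.8 TPM in smd1b, against 9.01, 8.94 and 10.3 TPM in prp39a and 9.69, 9.86 and 8.76 TPM in wild type (log2 fold change 0.80 ± 0.08 SE, limma adjusted p = 0.00133, smd1b against wild type). HEMD fell to 20.9, 21.1 and 19.3 TPM in smd1b, against 35.9, 35.1 and 33.8 TPM in prp39a and 34.9, 30.5 and 32.0 TPM in wild type (log2 fold change −0.65 ± 0.07 SE, limma adjusted p = 0.00165, smd1b against wild type).

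AT1G18020 fell to 27.1, 38.7 and 36.4 TPM in smd1b, against 69.2, 61.7 and 48.5 TPM in prp39a and 67.2, 66.6 and 85.5 TPM in wild type (log2 fold change −1.10 ± 0.17 SE, limma adjusted p = 0.00813, smd1b against wild type). Its lost isoform held 52.5, 57.8 and 57.4% in smd1b, 71.0, 73.7 and 74.7% in prp39a, and 74.0, 78.9 and 83.1% in wild type. It shares 84.1% of its longest transcript at 100% identity with AT1G17990, and AT1G59218 shares 89.9% at 99.3% with AT1G58848, so the values of these genes depend on how shared reads were divided. In prp39a the members called were AT4G04223 and AT2G41640, both lower, where 2.39% of genes were lower. Summed leaf photosynthesis markers (8 genes) ran between 36128 and 42081 TPM in smd1b, 43892 and 52058 TPM in prp39a, and 36719 and 44846 TPM in wild type. LHCB1.3 was the largest part of these sums, with means of 20497 TPM in smd1b, 29922 TPM in prp39a and 22463 TPM in wild type. By mean TPM in prp39a against wild type, LHCB1.1, LHCB1.3 and LHCB2.1 were higher. RBCS1A, RBCS1B, RBCS2B, RBCS3B and RCA were lower, so the sums do not describe the markers jointly. Of the 8 marker genes none passed in smd1b, and RBCS1B was lower in prp39a (limma adjusted p = 0.0303). Summed root markers (7 genes) ran between 38.0 and 54.2 TPM in smd1b, 39.0 and 78.4 TPM in prp39a, and 49.0 and 69.1 TPM in wild type, with SHR lower in smd1b (limma adjusted p = 0.0380). Floral organ markers (6 genes) summed to 5.10 to 7.48 TPM in smd1b, 4.32 to 6.63 TPM in prp39a, and 6.02 to 7.88 TPM in wild type. None was listed at 0 in all libraries, and their part in the results was not tested.

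**Figure D4:**
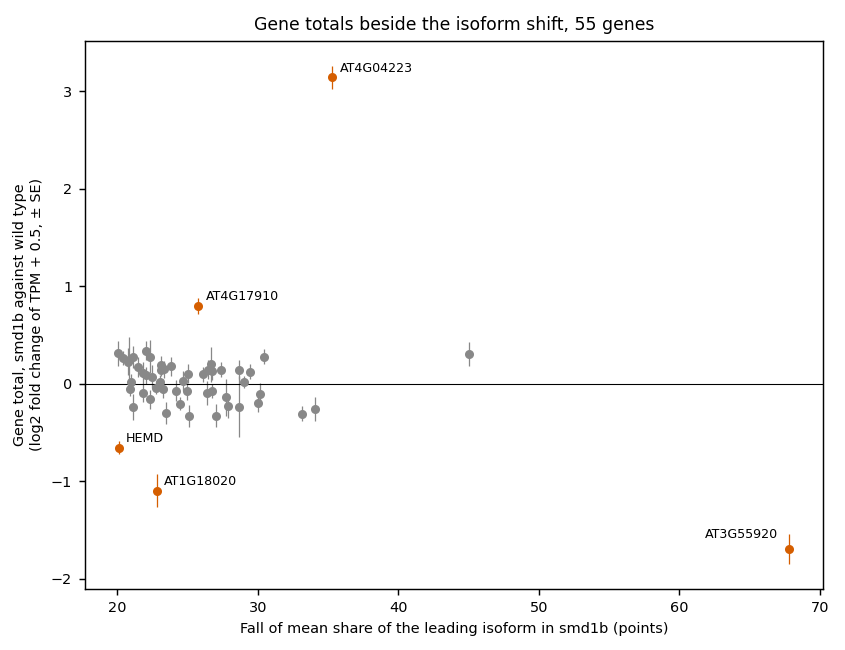
Log2 fold change of the gene total in smd1b against wild type (y axis, TPM plus 0.5, bars ± SE from limma) against the difference in share of the leading isoform (x axis, points) for the 55 genes. The 5 coloured and named genes passed at an adjusted p under 0.05, and the other 50 lie within 1.5-fold of wild type.

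Lists of splicing genes were read for the same measure, for which 16.4% of the 10843 genes had all smd1b shares below wild type and 0.867% did so by 20 points or more. SR30 was the only member on any list. Among 19 SR splicing factor genes with 2 or more isoforms, 4 had smd1b shares below wild type, a count near the share over all genes. By 20 points or more 1 did, SR30 itself. A single gene that the rule chose cannot be compared with the 0.867%. Among 20 genes of the U1 particle and Sm core, 4 had smd1b shares below wild type, also near that share, and none by 20 points or more. The nearest was PRP40A, with 61.7, 59.3 and 67.5% in smd1b, 63.2, 55.3 and 66.5% in prp39a, and 88.6, 82.3 and 70.0% in wild type. In PRP40A both mutants lay below wild type. None of 3 nonsense-mediated decay or exon junction genes had smd1b shares below wild type.

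U1-70K, the RNA-binding protein of the U1 particle, went the other way. Its leading isoform AT3G50670_P1 held 89.4, 83.2 and 86.6% in smd1b, 72.4, 74.8 and 71.4% in prp39a, and 58.2, 59.0 and 58.4% in wild type. The ratio was higher in smd1b than in wild type by 2.12 log2 units (limma adjusted p = 0.0023). It was the only one of 15 tested leading isoforms of this list to pass. The share of all leading isoforms that were higher in smd1b is not given here, so nothing is read from that count. By gene totals, U1-70K and SMD1B were the 2 of 25 genes of the list that fell in smd1b, where 3.06% of all genes did. SMD1B is the mutated gene, so its fall was given by the genotype. That leaves U1-70K alone, and nothing is read from the count. The paralog SMD1A did not pass (log2 fold change 0.50 ± 0.16 SE, limma adjusted p = 0.108, smd1b against wild type).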

How the data were processed

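The deposited table holds TPM for each transcript isoform in each library, calculated by the authors, with kallisto named in its column headers, per the file headers. No kallisto version or isoform annotation was given in the sources used. The submitters' processing notes list TAIR10 as build and, with no role stated, Trimmomatic, TopHat2, featureCounts and DESeq2 as tools. Each column sums to 1000000 TPM, so depth is unknown and no count test was run. The table has 15 value columns, of which 9 matched the samples by name and 6 were not used.

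Isoform TPM were summed per gene. Genes with a mean of 1 TPM or more (20585) were fitted on log2(TPM + 0.5), which understates changes of low genes. Isoforms with a mean share of 0.05 to 0.95 (22158) were fitted as log2 ratios to their gene's other isoforms. The fits used limma 3.58.1 in R 4.3.3 on all 9 libraries (two-sided, Benjamini-Hochberg adjusted over all features, threshold 0.05). They were run on simulated data with independent normal noise, which is the model of the fit. That run cannot show how shared reads, single deviating libraries or linked isoforms of a gene affect the calls. A raised isoform lowers the others of its gene.

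The members, the lists and the comparisons were chosen with earlier results of these data known. Named genes were the mutated genes, the 20 members with the largest difference, the 5 with the highest wild-type TPM, those at the threshold, those listed at 0 in smd1b, those with changed totals and list genes. Other members were named by role after their values were seen. Gene positions, transcripts and splice sites came from RefSeq on TAIR10.1, and near copies from blastn 2.17.0 (95% identity or more over at least 50% of the longest transcript). Alternatives were other limits and minimums, pseudocounts, filters, size factors, a replicate block and leaving out each library.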

Additional observations from a re-analysis of the deposited data

Results flagged for a closer look

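In 3 of the 55 genes every smd1b library lay below and every prp39a library above all wild-type libraries for the share of the lost isoform. The rule fixed the smd1b side in all 55. Among all 10843 genes with 2 or more isoforms, 9.60% had prp39a shares above wild type, so the count of 3 is not a feature of the set. Relative to wild type, the mean share in prp39a was 17.3 points higher for SR30 (AT1G09140), 10.4 points higher for AT3G60290 and 6.91 points higher for AT2G29290. AT3G60290 held 56.4, 30.2 and 60.0% in smd1b, 80.8, 79.7 and 80.6% in prp39a, and 69.5, 65.9 and 74.5% in wild type. The position of smd1b was fixed by the choice of genes, so the difference between the mutants was not tested independently in these genes.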

How the results depend on the processing

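The number of genes depends on the limits of the rule: it was 90 with a minimum of 1 TPM and 35 with 10 TPM, 132 at 15 points and 7 at 30 points, and 35 with a limit of 5 points in prp39a. Leaving out each library gave 46 to 79 genes, and 22 of the 55 were kept in all 9 such sets. Leave-one-out ranges of called genes or isoforms were 376 to 1422 for totals in smd1b (5 members each time), 218 to 836 for totals in prp39a (1 to 3 members), 128 to 459 for isoform ratios in smd1b (8 to 30 members), 1390 to 2309 in prp39a (1 to 2 members) and 1885 to 2773 for smd1b against prp39a (26 to 40 members). Same-numbered libraries correlated between −0.401 and 0.287, over 0.1 in 2 of 9 pairs, and 3 of 18 best matches had their own number, so the numbers were not taken as pairs. With the replicate block, 832 totals (1365 without) were called in smd1b, 343 (850 without) in prp39a, and 178 isoform ratios (501 without) in smd1b, 17 of them members (26 without). Size factors changed the split of called totals in smd1b to 753 higher and 757 lower (735 and 630 as deposited) and in prp39a to 610 and 387 (357 and 493), and members called to 3 higher and 4 lower in smd1b. The cause was not tested. Under the other alternatives run, the counts stayed within 1.5 times and no named total changed its call or sign. Unknown depth limits the low-TPM genes most, 14 of which were under 10 TPM in wild type.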
